A study of Mus musculus with 9 samples.

Results

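The 9 genes described here encode proteins of the triad, the junction at which skeletal muscle converts an electrical signal into calcium release. They were taken by symbol (Ryr1, Cacna1s, Cacnb1, Cacng1, Jph1, Jph2, Stac3, Trdn and Jsrp1) from a table of 10716 genes measured by RNA sequencing in C2C12 myotubes, and all 9 were present. C2C12 is a mouse myoblast line that fuses into multinucleated myotubes when made to differentiate. There were 3 groups of 3 libraries, all from myotubes after 24 h of treatment: dexamethasone at 50 µM plus THSG at 10 µM, dexamethasone at 50 µM alone, and vehicle. Dexamethasone is a synthetic glucocorticoid used to model muscle atrophy in culture, THSG is given in the labels as an abbreviation only (in common use it stands for a plant stilbene glucoside), and no library received THSG alone. The sample titles all name C2C12, while a line name in another label field ends in a number that differs for each sample, and the titles were followed.

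At a triad, a transverse tubule, an inward fold of the surface membrane, faces the sarcoplasmic reticulum, the calcium store of the fibre. Depolarisation moves the voltage sensor Cav1.1 in the tubule membrane, which in skeletal muscle opens the ryanodine receptor RyR1 of the store by direct coupling rather than by calcium entry. Cacna1s encodes the pore and voltage sensor of Cav1.1, Cacnb1 its cytoplasmic β1 subunit, needed to place the channel at the junction, and Cacng1 its γ1 subunit, which limits calcium entry through it. Stac3 encodes an adaptor that binds Cav1.1 and is needed for coupling. Ryr1 encodes the release channel, Trdn encodes triadin, which links it to the calcium-binding protein calsequestrin, and Jsrp1 encodes JP-45, a junctional protein that binds both calsequestrin and Cav1.1. Jph1 and Jph2 encode junctophilins, which tether the tubule to the store.

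The deposited values, fractional numbers above 1, were taken to be FPKM, that is, fragments scaled to transcript length and library size. No label states this unit. If it holds, levels can be set side by side between genes of the same library. Summed FPKM lay between 400218 and 422379 per library. Read counts are not given, so the depth and the counting error behind each value are unknown. Fkbp5, a co-chaperone gene induced through the glucocorticoid receptor, averaged 98.6 ± 2.7 FPKM with dexamethasone plus THSG, 97.8 ± 0.38 with dexamethasone and 6.57 ± 0.21 with vehicle (SD, n = 3 each), in keeping with the labels, and Fbxo32, Sgk1 and Per1, the other glucocorticoid-induced genes checked, rose by 2.08, 2.66 and 1.52 on the log2 scale with dexamethasone. All 20 myotube markers listed were in the table. The share of the FPKM total from genes of the mitochondrial genome was 14.0% in dexamethasone replicate 3 and 10.5% to 12% elsewhere. The labels do not say whether replicates came from separate cultures, so p-values measure only the spread between these libraries.

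The lowest value of any triad gene in any library was 12.8 FPKM (Trdn). With vehicle, Cacng1 was the highest at 164 ± 11.6 FPKM (SD, n = 3), and Trdn the lowest at 13.5 ± 0.80 FPKM. In order of their vehicle means, Cacng1 was followed by Cacnb1 (102 ± 4.4 FPKM), Jsrp1 (90.9 ± 6.4), Jph2 (89.8 ± 7.1), Ryr1 (68.2 ± 2.4), Cacna1s (41.0 ± 0.88), Stac3 (28.4 ± 2.4), Jph1 (19.0 ± 0.97) and Trdn. The libraries of neighbours in this order overlapped for Cacnb1 and Jsrp1 and for Jsrp1 and Jph2, and did not overlap for the other neighbours. The auxiliary subunits Cacng1 and Cacnb1 thus stood above the pore gene Cacna1s on this inferred scale per length. Ryr1 ranked 947th from the top and Trdn 5101st among the 10716 genes by vehicle mean. The order was the same with dexamethasone. With dexamethasone plus THSG, Jsrp1 (108 ± 2.6 FPKM) and Cacnb1 (106 ± 6.5 FPKM) changed places, with overlapping libraries.

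**Figure D1:**
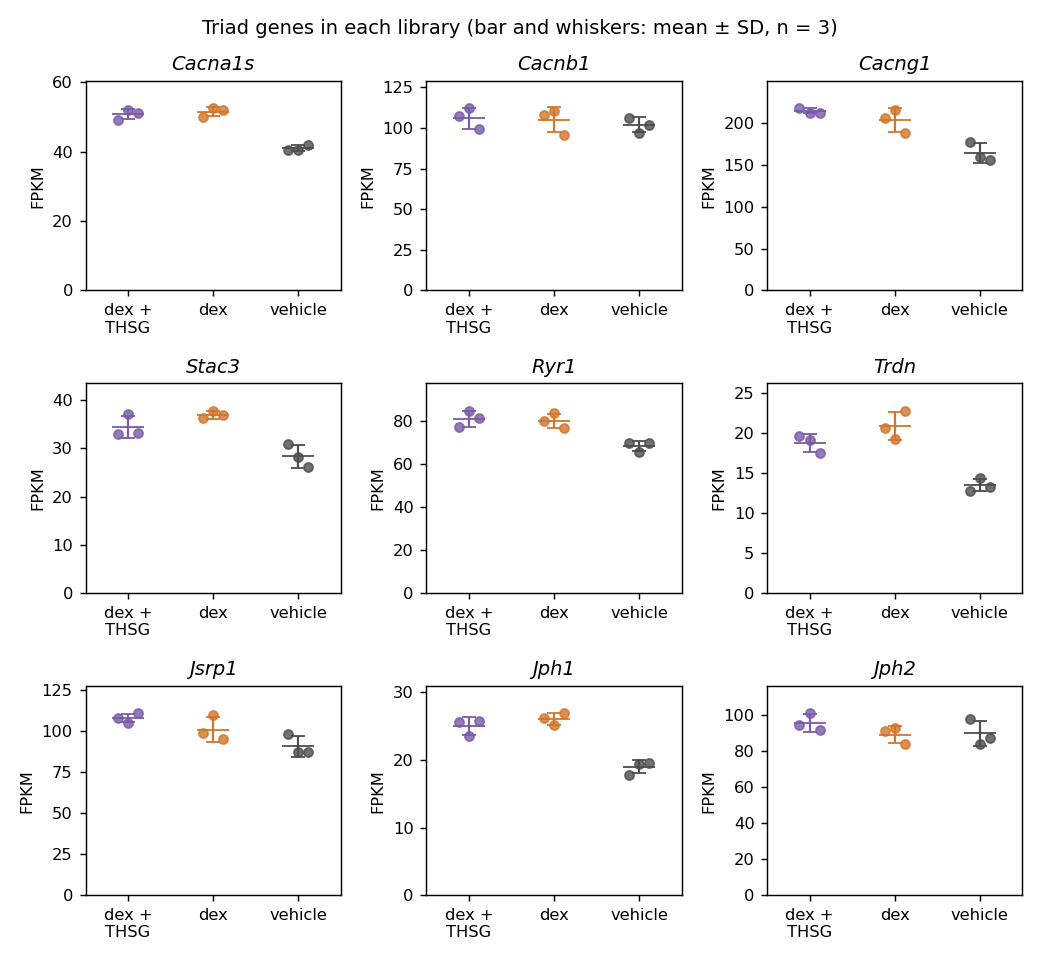
FPKM (vertical axes, each from 0) of the 9 triad genes in the 3 libraries of each group, with the mean and SD drawn as a bar and whiskers. For Cacna1s, Cacng1, Stac3, Ryr1, Trdn and Jph1 the vehicle libraries lie below both groups with dexamethasone, whereas Cacnb1 and Jph2 overlap between all groups and Jsrp1 libraries with dexamethasone alone overlap those with vehicle.

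RefSeq promoter windows (build GRCm38.p6, from 250 bases before to 50 bases after an annotated start) were at hand for 4 of the 9 genes, and these are 2 genes that were higher with dexamethasone, Cacna1s and Ryr1, and 2 that were not called, Jph2 and Cacnb1. They are shown side by side, but this grouping depends on the processing. Jph2 and Cacnb1 were called higher too once GC content and length were corrected for, as given below. Jph2 and Cacnb1 have 2 windows each, and the first listed is printed. Capitals mark the E-box CANNTG, the site class bound by myogenic factors such as MyoD, which reads the same on both strands.
Cacna1s, chr1:136052561-136052860, plus strand: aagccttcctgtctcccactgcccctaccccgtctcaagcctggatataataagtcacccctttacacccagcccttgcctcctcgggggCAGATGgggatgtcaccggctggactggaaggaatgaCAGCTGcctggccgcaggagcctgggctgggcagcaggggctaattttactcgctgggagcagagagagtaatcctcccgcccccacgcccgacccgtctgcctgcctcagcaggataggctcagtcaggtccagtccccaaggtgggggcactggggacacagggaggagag
Ryr1, chr7:29125102-29125401, minus strand: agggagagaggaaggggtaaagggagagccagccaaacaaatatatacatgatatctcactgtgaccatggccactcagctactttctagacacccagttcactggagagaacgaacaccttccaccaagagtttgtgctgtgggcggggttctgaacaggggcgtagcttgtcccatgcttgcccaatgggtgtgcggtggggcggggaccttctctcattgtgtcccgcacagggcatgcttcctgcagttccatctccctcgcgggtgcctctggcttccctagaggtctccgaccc
Jph2, chr2:163397944-163398243, minus strand: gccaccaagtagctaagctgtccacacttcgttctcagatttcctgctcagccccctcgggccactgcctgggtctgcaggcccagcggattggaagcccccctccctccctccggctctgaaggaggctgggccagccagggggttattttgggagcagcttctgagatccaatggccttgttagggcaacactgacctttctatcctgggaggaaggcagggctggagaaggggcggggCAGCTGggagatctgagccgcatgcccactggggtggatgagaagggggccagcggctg
Cacnb1, chr11:98022578-98022877, minus strand: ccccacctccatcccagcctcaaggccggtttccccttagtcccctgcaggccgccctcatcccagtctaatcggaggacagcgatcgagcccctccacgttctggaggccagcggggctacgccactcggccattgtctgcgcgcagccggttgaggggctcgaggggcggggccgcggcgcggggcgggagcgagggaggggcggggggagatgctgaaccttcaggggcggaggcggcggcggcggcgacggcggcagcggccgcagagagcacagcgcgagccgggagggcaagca
The Cacna1s window held 2 E-boxes, CAGATG beginning 160 bases and CAGCTG beginning 123 bases before the start. The Jph2 window held 1, CAGCTG, beginning 9 bases before the start (the overlapping second window, whose start lies elsewhere, holds the same letters 29 bases before it). In the Ryr1 window and the first Cacnb1 window these letters did not occur, and the second Cacnb1 window held CACATG beginning 27 bases before its start. An E-box occurred in 72.3% of all 32851 windows of this length. The MEF2 site occurred in 3.19% of them and the serum response factor (CArG) site in 1.63%. For the glucocorticoid response element only perfect copies of its inverted repeat were sought, and these occurred in 0.00913% (3 windows). Its single repeat unit AGAACA, also without mismatch, occurred on either strand in 19.0%. The 6 windows of these genes held none of these 4 motifs. With perfect copies so rare in all windows, their absence here does not tell whether less exact copies are present. The motifs did not overlap one another here, and a match describes letters, not a bound site.

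The comparison of dexamethasone with vehicle asked how the glucocorticoid altered the myotube transcriptome. Of the 9 triad genes, 6 rose and 0 fell: Trdn, Jph1, Stac3, Cacna1s, Cacng1 and Ryr1. Cacnb1, Jph2 and Jsrp1 were not called. Over all genes tested, 12.7% were called higher (limma with Benjamini-Hochberg adjustment over 10716 genes, threshold 0.05) and 20.9% lower. The median log2 fold change of the 9 genes was 0.31, beside -0.05 over all genes. Among all calls 37.8% were higher with values as deposited, 50.5% with quantile normalization, 49.6% with median-ratio scaling and 51.7% once trends over GC content and length were removed. In 6 of the 9 genes all 3 dexamethasone libraries lay above all 3 vehicle libraries, as in 18% of all genes.

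Among the voltage sensor genes, Cacna1s, the pore, had 49.2, 52.0 and 51.2 FPKM with dexamethasone plus THSG, 50.1, 52.5 and 51.9 with dexamethasone, and 40.4, 40.6 and 42.0 with vehicle. All 6 libraries with dexamethasone lay above the 3 without it. With dexamethasone alone Cacna1s rose by a log2 change of 0.33 (SE 0.0435, limma adjusted p = 0.000126), which is 25.5% above vehicle. Cacng1, the γ1 subunit, had 217, 212 and 212 FPKM with dexamethasone plus THSG, 206, 215 and 188 with dexamethasone, and 177, 159 and 156 with vehicle. Again the groups with dexamethasone did not overlap with vehicle, and Cacng1 rose by 0.31 (SE 0.0599, adjusted p = 0.00197). Cacnb1, the β1 subunit, had 107, 112 and 99.4 FPKM with dexamethasone plus THSG, 108, 110.3 and 95.6 with dexamethasone, and 106, 97.1 and 102 with vehicle. Its groups overlapped throughout, with a log2 change of 0.04 for dexamethasone against vehicle and a 95% interval from -0.10 to 0.18 (adjusted p = 0.699).

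Stac3, the coupling adaptor, had 33.0, 37.2 and 33.3 FPKM with dexamethasone plus THSG, 36.3, 37.8 and 36.9 with dexamethasone, and 31.0, 28.2 and 26.2 with vehicle. The dexamethasone libraries lay close together and above every vehicle library, and Stac3 rose by a log2 change of 0.38 (SE 0.0678, adjusted p = 0.00108).

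On the side of the store, Ryr1 had 77.2, 84.7 and 81.3 FPKM with dexamethasone plus THSG, 80.0, 83.5 and 76.6 with dexamethasone, and 69.6, 65.4 and 69.6 with vehicle. All libraries with dexamethasone exceeded all vehicle libraries, and the rise of the release channel was the smallest of the 6 called, 0.23 on the log2 scale (SE 0.0505, adjusted p = 0.00421), or 17.3%. Trdn, triadin, had 19.6, 19.2 and 17.5 FPKM with dexamethasone plus THSG, 20.7, 19.3 and 22.8 with dexamethasone, and 12.8, 14.4 and 13.3 with vehicle. It showed the largest rise of the 9, a log2 change of 0.63 (SE 0.0757, adjusted p = 5.76e-05), or 54.6%, and 96.8% of all genes had a lower log2 fold change. Jsrp1, JP-45, had 108, 105 and 111 FPKM with dexamethasone plus THSG, 98.9, 109.7 and 95.2 with dexamethasone, and 98.3, 87.3 and 87.2 with vehicle. Vehicle replicate 1 overlapped the dexamethasone libraries, and the log2 fold change of 0.16 was not called (95% interval 0.02 to 0.29, adjusted p = 0.0751). Without vehicle replicate 1 it was called at 0.21 (adjusted p = 0.0215), and without dexamethasone replicate 3, whose mitochondrial share was the highest, at 0.20 (adjusted p = 0.0446). Leaving out dexamethasone replicate 2 gave 0.10 (limma adjusted p = 0.268), and leaving out vehicle replicate 2 or 3 gave 0.13, none of them called. It was also called with median-ratio scaling (0.20), equal sums (0.17) and quantile normalization (0.17).

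The junctophilins differed from each other. Jph1 had 25.6, 23.5 and 25.8 FPKM with dexamethasone plus THSG, 26.2, 25.1 and 26.9 with dexamethasone, and 17.8, 19.4 and 19.6 with vehicle. Its groups with dexamethasone stood clear of vehicle, and with dexamethasone alone it rose by a log2 change of 0.46 (SE 0.0596, adjusted p = 0.000107), or 37.3%. Jph2, the more abundant of the pair, had 94.3, 101 and 91.6 FPKM with dexamethasone plus THSG, 90.9, 92.7 and 84 with dexamethasone, and 97.8, 84.1 and 87.5 with vehicle. The groups overlapped, and the log2 fold change was -0.01 with a 95% interval from -0.15 to 0.13 (adjusted p = 0.935); its sign was positive with median-ratio scaling (0.04), equal sums (0.01) and quantile normalization (0.01).

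**Figure D2:**
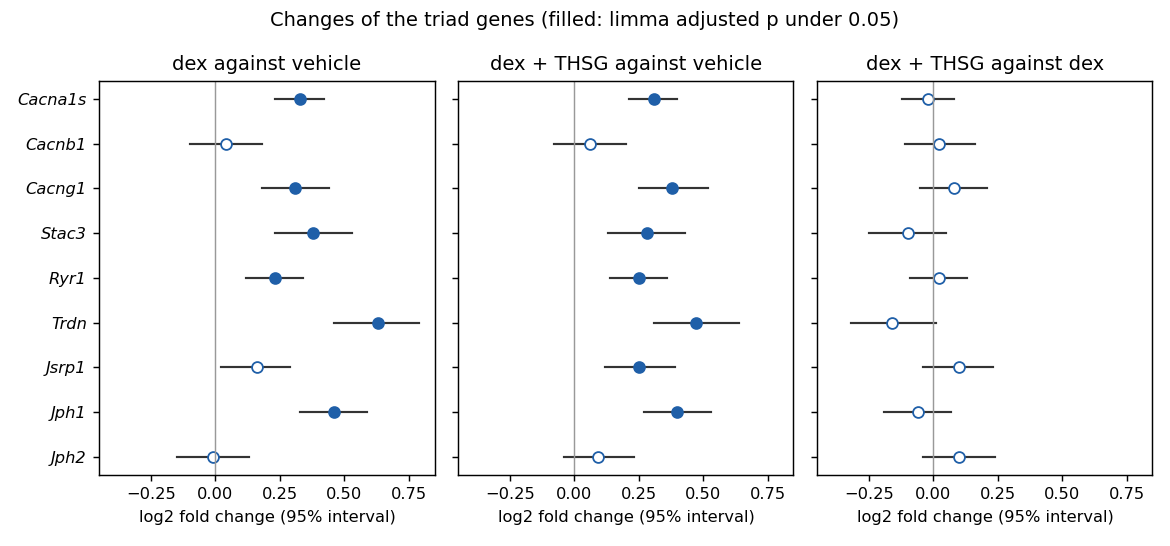
Log2 fold changes of the 9 triad genes (points) with 95% intervals (lines) in the 3 comparisons, from limma on log2(FPKM + 0.1) with 3 libraries per group; filled points have an adjusted p under 0.05. Trdn at 0.63 is the largest change against vehicle, and no point is filled where THSG was added to dexamethasone.

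Base composition moved with these calls. In order of rising GC content of the longest annotated transcript (GENCODE M21), the genes were Trdn (36.8% GC), Jph1 (46.7%), Cacna1s (54.1%), Stac3 (54.6%), Cacng1 (55.9%), Ryr1 (58.0%), Cacnb1 (59.7%), Jph2 (61.8%) and Jsrp1 (62.0%), and the 3 genes richest in GC were the 3 not called. Over all genes the median log2 fold change also fell with GC content, with 0.02 in the 2134 genes poorest in GC and -0.13 in the 2134 richest. Its part in the differences between the triad genes was not tested beyond the correction that follows, which removed GC content and transcript length together. The part of each was not told apart. With this correction Cacng1 (1249 bases) went from 0.31 to 0.44, and Ryr1 (15358 bases), of similar GC content, from 0.23 to 0.25. When the dependence on GC content and transcript length was removed within each library before the fit, all 9 triad genes were called higher, where 17.4% of all genes were, and the median of the 9 was 0.37. Trdn then stood at 0.54, Cacnb1 at 0.20 (limma adjusted p = 0.00518), Jph2 at 0.17 (adjusted p = 0.00368) and Jsrp1 at 0.37 (adjusted p = 5.85e-05). Cacnb1 and Jph2 were called only with this correction among the alternatives run, and the calls of the 6 genes named first did not change with it.

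**Figure D3:**
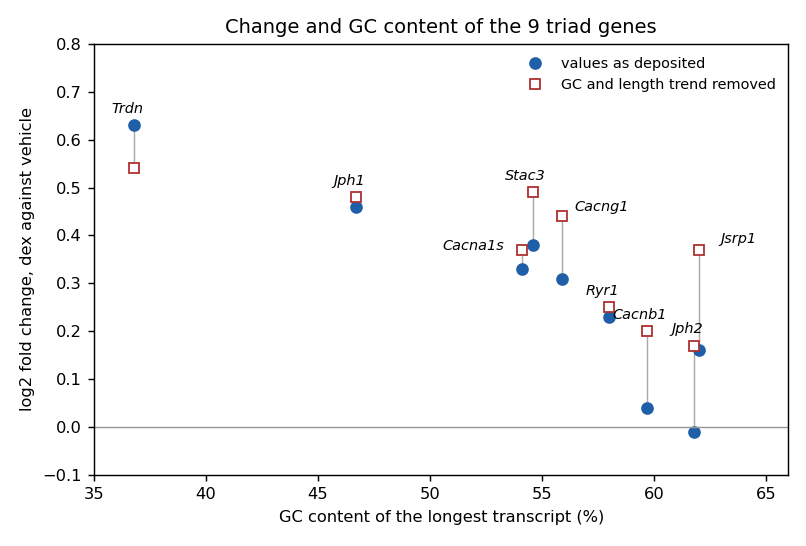
Log2 fold change for dexamethasone against vehicle (vertical axis) against the GC content of the longest transcript (horizontal axis) for the 9 triad genes, with values as deposited (filled circles) and with GC content and length corrected for within each library (open squares), joined by a line for each gene. The deposited values range from 0.63 for Trdn to -0.01 for Jph2, and the corrected values lie between 0.17 and 0.54.

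Proportions between triad genes were compared within each library, between the 6 libraries with dexamethasone (with or without THSG) and the 3 with vehicle, for 6 ratios of FPKM values. The ratio of Jph2 to Jph1 lay between 3.12 and 4.29 (median 3.61) with dexamethasone, against 5.45, 4.31 and 4.45 with vehicle. The groups did not overlap, and the log2 difference was -0.38 (exact two-sided permutation p = 0.0238, adjusted p = 0.0714 over the 6 ratios). Cacnb1 relative to Cacna1s lay between 1.84 and 2.18 (median 2.12) with dexamethasone, against 2.61, 2.39 and 2.43 with vehicle, again without overlap (log2 difference -0.27, exact permutation p = 0.0238, adjusted p = 0.0714). The ratio of Trdn to Jsrp1 was 0.159 to 0.240 with dexamethasone, against 0.131, 0.165 and 0.154 with vehicle (log2 difference 0.35), and that of Cacna1s to Ryr1 was 0.615 to 0.678, against 0.582, 0.622 and 0.604 (0.08); both overlapped, with exact permutation p = 0.0476 and adjusted p = 0.0714. Stac3 and Cacng1 kept close to Cacna1s, with log2 differences of 0.01 and 0.03 in their ratios to it (exact permutation p = 0.810 and 0.714, adjusted p = 0.810 for both). No ratio passed after adjustment, and 0.0238 is the smallest p that 6 against 3 libraries allow. Once 6 ratios are adjusted together, no ratio can pass alone, even at that smallest p. With GC content and length corrected for, the ratios of Jph2 to Jph1 (-0.28), Cacnb1 to Cacna1s (-0.18) and Cacna1s to Ryr1 (0.10) passed, each with an adjusted p of 0.0476 in the exact permutation test. Jph2 to Jph1 and Cacnb1 to Cacna1s were at the smallest p without the correction too, with larger differences (-0.38 and -0.27). Their passing therefore does not mark a larger change.

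Adding THSG to dexamethasone was then set against dexamethasone alone, which asks whether THSG altered the response. None of the 9 triad genes was called, and none of all 10716 genes was either (0% by limma; 7.25% had an unadjusted p under 0.05, none of them a triad gene). In all 9 the libraries of the groups overlapped, while 13.3% of all genes had groups that did not. Log2 fold changes lay between -0.16 for Trdn (95% interval -0.32 to 0.01, limma adjusted p = 0.698) and 0.10 for Jph2 (-0.04 to 0.24, adjusted p = 0.764) and Jsrp1 (-0.04 to 0.23, adjusted p = 0.769). For Ryr1 the difference was 0.02 (-0.09 to 0.13) and for Cacna1s -0.02 (-0.12 to 0.08). Stac3 stood at -0.10 (-0.25 to 0.05), Jph1 at -0.06 (-0.19 to 0.07), Cacng1 at 0.08 (-0.05 to 0.21) and Cacnb1 at 0.02 (-0.11 to 0.16).

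Against vehicle, 7 of the 9 genes rose and 0 fell with dexamethasone plus THSG, where 12.1% of all genes were called higher by limma and 17% lower; after the GC and length correction 52.4% of calls were higher, beside 41.5% without it. This comparison shares its vehicle libraries with that of dexamethasone alone. Jsrp1 was called here, at 0.25 (SE 0.062, adjusted p = 0.00941), with all 3 libraries above vehicle, and its difference between the groups with and without THSG, given above, was not called. Trdn rose by 0.47 (SE 0.0757, adjusted p = 0.000561), Jph1 by 0.40 (SE 0.0596, adjusted p = 0.000349), Cacng1 by 0.38 (SE 0.0599, adjusted p = 0.000449), Cacna1s by 0.31, Stac3 by 0.28 and Ryr1 by 0.25. Cacnb1 stood at 0.06 (-0.08 to 0.20) and Jph2 at 0.09 (-0.04 to 0.23), and both were called once GC content and length were corrected for (0.14, adjusted p = 0.0359, and 0.16, adjusted p = 0.00547), where 16.4% of all genes were called higher. The median of the 9 was 0.28, beside -0.04 over all genes, and the groups did not overlap in 7 of the 9 genes and, higher, in 17.9% of all genes.

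Genes of other sarcoplasmic reticulum proteins were mostly higher as well. Of 15 listed genes 11 were in the table, and with dexamethasone 8 rose and 1 fell, with a median log2 fold change of 0.36. With GC content and length corrected for, 10 rose and 0 fell. Over all genes 12.7% were called higher and 20.9% lower with dexamethasone, 17.4% and 16.2% with that correction, and 12.1% and 17% with THSG added. Tmem38b, which encodes the potassium channel TRIC-B of the store, averaged 51.8 ± 2.3 FPKM with dexamethasone and 30.4 ± 0.38 with vehicle (SD, n = 3 each; log2 fold change 0.77, limma adjusted p = 2.14e-07). The calsequestrins, the calcium-binding proteins held by triadin, rose too, with Casq2 at 462 ± 7.1 and 341 ± 1.4 FPKM (0.44) and Casq1 at 133 ± 5.4 and 102 ± 2.7 FPKM (0.38) for dexamethasone and vehicle. Srl, sarcalumenin, stood at 214 ± 4.6 and 165 ± 8.6 FPKM (0.37) in the same order. Asph, whose products include junctin, a triadin relative, rose by 0.42; its FPKM value does not tell junctin from the gene's other products. The gene that fell was Speg, a kinase associated with the triad, at 20.5 ± 1.8 FPKM with dexamethasone and 24.3 ± 1.2 with vehicle (-0.25, limma adjusted p = 0.0135). This call was lost under the correction (-0.12, adjusted p = 0.186), and Speg was not called with dexamethasone plus THSG (-0.12, adjusted p = 0.207), where 9 of the 11 rose and 0 fell. Of the pumps and buffers, 4 of 6 in the table rose and 2 fell with dexamethasone, and the same counts held with THSG added. Among them the pump genes Atp2a1 (0.62) and Atp2a2 (0.25) rose, and Calr (-0.36) and Calu (-0.28), which encode general reticulum calcium-binding proteins, fell.

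Other subunits of the voltage sensor and partners of the release channel moved in both directions in the values as deposited. Of 13 other calcium channel and STAC genes only 4 were in the table. Cacna2d1, the α2δ1 subunit that completes the skeletal muscle channel, had 62.0, 59.7 and 59.8 FPKM with dexamethasone plus THSG, 58.2, 65.0 and 65.7 with dexamethasone, and 41.9, 45.1 and 45.1 with vehicle. Its libraries with dexamethasone lay above all vehicle libraries, a rise of 0.51 with dexamethasone (SE 0.0547, limma adjusted p = 2.08e-05) and 0.46 with dexamethasone plus THSG. Stac2, a relative of Stac3, fell with dexamethasone (27.3 ± 1.6 FPKM, against 31.1 ± 1.2 with vehicle; -0.19, adjusted p = 0.0227), and Cacnb3 and Cacng6 were not called. Under the GC and length correction Stac2 was not called (-0.04, limma adjusted p = 0.575), whereas Cacna2d1 (0.45), Cacnb3 (0.18) and Cacng6 (0.42) were all called higher. Of 18 receptor isoforms and partners in the table, 3 rose and 7 fell with dexamethasone, with a median of -0.12, and 2 rose and 3 fell with THSG added. The correction left 4 higher and 4 lower with dexamethasone, with a median of -0.03. The shares of all genes called higher and lower were 12.7% and 20.9% with dexamethasone, and 17.4% and 16.2% with the correction. With THSG added they were 12.1% and 17%. Ryr3, a second ryanodine receptor found in immature muscle, had 5.82, 6.12 and 5.86 FPKM with dexamethasone plus THSG, 5.96, 6.29 and 6.90 with dexamethasone, and 3.36, 3.54 and 3.82 with vehicle. All its libraries with dexamethasone exceeded vehicle (0.82 with dexamethasone, SE 0.0924, adjusted p = 3.35e-05). Camk2d, a calcium and calmodulin dependent kinase gene, rose by 0.64, while Itpr3, an IP3 receptor, and Selenon, a selenoprotein that acts on ryanodine receptors, had log2 fold changes of -0.42 and -0.28; with the correction Selenon was not called (-0.15, limma adjusted p = 0.0631). Ryr2 was not in the table.

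In the membrane groups, 3 of 12 genes of transverse tubule formation rose with dexamethasone and 0 fell, with a median of 0.15; 7 rose and 0 fell with the GC and length correction. Bin1, which encodes amphiphysin 2 and bends the tubule membrane, averaged 717 ± 32.9 FPKM with dexamethasone and 622 ± 31.3 with vehicle (SD, n = 3 each; 0.20, limma adjusted p = 0.0102), and Cavin4 and Pacsin3 rose by 0.22 and 0.21. Of 6 genes of store-operated calcium entry in the table, 1 rose and 2 fell, against 2 and 1 with the correction. Stim1, the calcium sensor of the store, stood at 21.7 ± 1.6 FPKM with dexamethasone and 14.8 ± 0.71 with vehicle (0.55, adjusted p = 8.13e-05), and the channel gene Orai2 at 7.0 ± 0.29 and 10.6 ± 0.77 FPKM (-0.59, adjusted p = 0.000108) in the same order. Stimate, which encodes a partner of STIM1, had a log2 change of -0.43, which was not called with the correction (-0.35, limma adjusted p = 0.0727). Of 10 genes of membrane excitability, 2 rose and 3 fell, and 4 rose and 3 fell with the correction. Beside these counts, 12.7% of all genes were called higher and 20.9% lower with dexamethasone, and 17.4% and 16.2% with the correction. Scn4a, the sodium channel of adult muscle, rose by 0.33 (25.0 ± 0.51 FPKM, against 19.8 ± 0.71 with vehicle). Atp1b1, a subunit of the sodium pump, rose by 0.98, and the potassium channel gene Kcnj2 had a log2 change of -0.70.

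**Figure D4:**
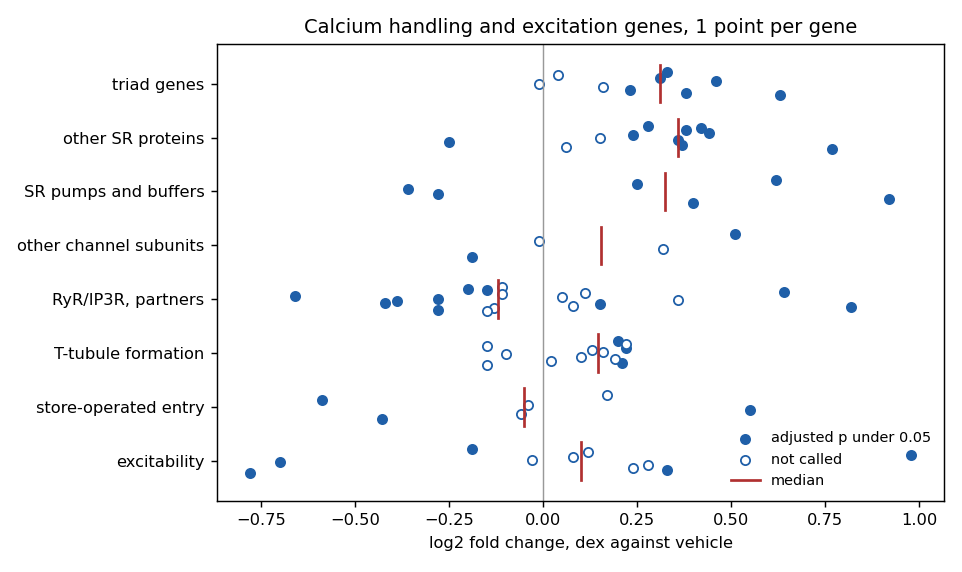
Log2 fold change for dexamethasone against vehicle (horizontal axis) of each gene in the table (points) from the 9 triad genes and 7 lists of calcium handling and excitation genes, with the median of each row as a red line; filled points have a limma adjusted p under 0.05. Medians above 0 are those of the triad genes (0.31), other sarcoplasmic reticulum proteins (0.36) and pumps and buffers (0.33). So are those of other channel subunits (0.15), transverse tubule formation (0.15) and excitability (0.10). Store-operated entry (-0.05) and the receptor isoforms and partners (-0.12) lie below 0, where the median over all genes is -0.05.

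Markers of the state of the culture moved in the same comparison. There 12.7% of all genes were called higher and 20.9% lower, and 17.4% and 16.2% with the GC and length correction. Of 20 myotube markers, 13 rose and 1 fell with dexamethasone (median 0.25; 16 and 0 with the correction), and their summed level was 13612 to 14653 FPKM with dexamethasone and 12654 to 14146 with vehicle. Mylpf was the largest part of that sum (4696 and 4656 FPKM in that order). Of 14 markers of dividing cells in the table, 1 rose and 13 fell (median -1.35), with summed levels of 92.3 to 98.6 and 146 to 157 FPKM in the same order of groups. Rrm2, the 1 that rose, was the largest part of these levels (45.3 and 38.6 FPKM). Of 7 fibroblast markers 2 rose and 5 fell (median -0.89), with 1845 to 1882 and 3193 to 3315 FPKM in that order. The largest part of this sum was Fn1 (1111 ± 22.6 and 2215 ± 55.0 FPKM). The 2 that rose were Postn (217 ± 6.6 and 48.5 ± 2.3 FPKM, log2 fold change 2.16) and Pdgfra (1.31). C2C12 is a myoblast line, and whether these genes mark separate cells here was not tested. Reserve cell and myoblast markers rose in 4 of 14 cases and fell in 7 (median -0.12), at 886 to 931 FPKM with dexamethasone and 920.3 to 989.5 with vehicle. Itga7 (418 and 467 FPKM) and Ncam1 (261 and 210.3) made up most of that level, so it says little of the other markers. Mki67 and Bub1 of the dividing cell list and Lum, Thy1 and Fap of the fibroblast list were not in the table. The 9 triad genes together summed to 678 to 746 FPKM with dexamethasone and 595 to 651 with vehicle. In such bulk samples, fewer cells of a type and less RNA per cell cannot be told apart, and the part that these markers play in the rise of the triad genes was not tested.

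Profiles over the 9 libraries were compared between the 4 triad genes with the largest change and 8401 other genes averaging 5 FPKM or more, by the root mean square difference of log2 values relative to the vehicle mean. Among those closest to Cacna1s were Lmo7 (0.0328) and Ncam1 (0.0332), a cell adhesion gene. Closest to Jph1 were Ppp2r3a (0.0353), Acsl1 (0.0413) and Tmem64 (0.0445), and closest to Stac3 were Ank3 (0.0441), Akap1 (0.0511) and Btg2 (0.0588). Trdn had no neighbour as close, with Cir1 at 0.0642, Adam12 at 0.0767 and Esyt2 at 0.0770.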

How the data were processed

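RNA of 9 C2C12 libraries was sequenced from stranded mRNA libraries, per the labels' protocols. Per the submitters' processing notes, the authors used STAR 2.7.10a, featureCounts and a mouse build (mm39). The authors' deposited values were read as FPKM, which no header or label states: they are fractional, all above 1 and not larger for longer transcripts (Spearman correlation -0.12 across genes, which are not independent), and other scaled units remain possible. The strand setting, the transcript lengths and the filter on low values are not given in the sources used here. Reads could not be recovered from the low values, so depth is unknown. Exons of Jph1, Cacna1s, Ryr1 and Cacnb1 overlap annotated genes on the opposite strand.

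limma 3.58.1 (R 4.3.3) was fitted to log2(FPKM + 0.1), with 1 mean per group, all 9 libraries in 1 fit, a variance trend over intensity and two-sided tests adjusted over 10716 genes. Fold changes on this scale slightly understate those of low genes. GC content and length came from the longest GENCODE M21 transcript (10670 identifiers matched, 46 did not), and trends were removed with splines of 4 degrees of freedom for each, with unmatched genes shifted by the mean trend. Ratios were tested with exact permutation in scipy 1.17.1. The fit was tested on simulated data, with 66 or 67 genes changed at each size. For dexamethasone against vehicle it recovered 25.8% of changes of 0.25 on the log2 scale and 58.2% of changes of 0.5. For THSG added to dexamethasone it recovered 33.3% and 64.2%, so changes of these sizes can be missed. The simulation changed few of the 10716 genes. In the data 3601 genes were called for dexamethasone against vehicle and 0 for THSG added to dexamethasone. The adjustment depends on how many genes change, so these shares need not hold for the data. The triad genes, the lists and the naming rule (triad genes, up to 4 called genes per list and comparison by smallest p, 3 nearest profiles) were chosen with earlier results of these data known. Speg, Cacnb3, Cacng6, Fkbp1a and Pdgfra fall outside this rule and were named after their values were seen. Some genes that the rule names are not reported here.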

Additional observations from a re-analysis of the deposited data

How the results depend on the processing

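For the 9 triad genes, the 6 calls against vehicle with dexamethasone and the 7 with dexamethasone plus THSG kept their direction and their side of the threshold under all 17 alternatives run in each comparison (pseudocounts of 0 and 1, 3 other scalings, no intensity trend, genes averaging 5 FPKM or more, 2 groups only, replicate block, GC and length correction, both together, and each library left out). The number of triad genes called was 6 to 9 and 7 to 9. With the replicate block, which the numbers do not support as a pairing (same-numbered libraries deviated together with correlations of -0.086 to 0.107 across genes, 1 of 9 above 0.1, and 4 of 9 libraries correlated best with their own number), the calls were 3518 for dexamethasone and 3003 for dexamethasone plus THSG against vehicle, where 3601 and 3120 were called without it. Against dexamethasone alone the block called 1 gene, Rps2-ps10, also 1 together with the GC and length correction, and leaving out 1 library at a time called 0 to 1 (Cks2, without dexamethasone replicate 3); both genes are named after their values were seen, and the cause was not tested.

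Signs changed only where no call stood in the main analysis. For dexamethasone against vehicle, Jph2 (-0.01) stood at 0.17 after GC and length correction, with and without the block, at 0.04 with median-ratio scaling, at 0.01 with equal sums and with quantile normalization, and between -0.05 and 0.05 with libraries left out; Cacnb1 ranged from 0.00 to 0.10 with libraries left out. For THSG added to dexamethasone, the GC and length correction, with and without the block, gave -0.01 for Ryr1, -0.06 for Cacnb1, -0.01 for Jph2 and -0.04 for Jsrp1, and quantile normalization gave -0.02 for Ryr1 and 0.00 for Cacnb1; with libraries left out Ryr1 ranged from -0.01 to 0.05, Cacnb1 from -0.04 to 0.07 and Cacna1s from -0.04 to 0.00. Of the ratios, Cacng1 to Cacna1s ranged from -0.02 to 0.10 and Stac3 to Cacna1s from -0.06 to 0.09 with libraries left out. Cacna1s to Ryr1 (0.10), Cacnb1 to Cacna1s (-0.18) and Jph2 to Jph1 (-0.28) passed after GC and length correction. As said above, no ratio can pass alone in this test. Depth is unknown, so counting error could not be separated from other spread.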

Other observations

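Fkbp1b, which encodes calstabin 2, a small protein bound to ryanodine receptors, was singled out after its values were seen, since it stood nearest to the threshold among the listed calcium genes when THSG was added. It had 4.34, 4.23 and 5.64 FPKM with dexamethasone plus THSG, 2.25, 2.64 and 2.27 with dexamethasone, and 3.10, 4.28 and 4.17 with vehicle. The dexamethasone libraries lay below all others, while the remaining groups overlapped. Libraries of dexamethasone with and without THSG did not overlap in 13.3% of all genes. The log2 fold change of Fkbp1b was 0.95 for dexamethasone plus THSG against dexamethasone (95% interval 0.62 to 1.29), which was not called over all genes (limma adjusted p = 0.227, and 0.122 to 0.463 under the alternatives run), and -0.66 for dexamethasone against vehicle (adjusted p = 0.00621). Both changes of Fkbp1b share the same dexamethasone libraries, and its values were low in a table whose lowest value was 1.0 FPKM. Its relative Fkbp1a, the isoform usual on skeletal RyR1, was not called in any comparison, at 0.07 and -0.11 on the log2 scale for the same comparisons. Mtmr14, a lipid phosphatase gene linked to calcium release in muscle, was also chosen after its values were seen. It had 11.1, 10.2 and 10.3 FPKM with dexamethasone plus THSG and 8.72, 7.82 and 8.16 with dexamethasone, without overlap, and was not called between them (log2 fold change 0.35, limma adjusted p = 0.276).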
